A study of Mus musculus with 8 samples.

Results

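The 10 genes described here are the core of the circadian clock and 1 of its output genes: Nr1d1, Nr1d2, Per1, Per2, Per3, Cry1, Cry2, Arntl, Clock and Dbp. They were taken by symbol, so that Nr1d1 could be set beside the rest of the clock. Nr1d1 itself was chosen by its measured rise in counts between the same 8 libraries. All 10 had a row among the 24421 genes counted, and all 10 passed the filter on low counts that left 12363 genes. Its values are given as a description without a test. The other 9 are on the list for their role, and their p-values come from the fit over all genes.

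The cells were T follicular regulatory (TFR) cells, which express Foxp3 and enter the B cell follicle, from mouse spleen. Poly(A) RNA was sequenced in 4 WT libraries and in 4 libraries from mice carrying Blimp1-flox and Foxp3-cre, called Blimp1-flox below. In such mice Cre, expressed from Foxp3, deletes within Prdm1, the gene of the repressor Blimp1, in Foxp3-expressing cells. All mice had been given peanut with cholera toxin by mouth in 2 challenges, and cells were taken on day 36. CD4+ cells were enriched on a column and sorted as Foxp3-YFP+ CXCR5+ PD1+. Foxp3-cre status of the WT mice, the number of floxed alleles and the age of the mice are not in the labels. Nor do they tie each library to a mouse of its own, so p-values measure the spread between these libraries, which may be technical. The time of day at which the spleens were taken is not given in the sources used here.

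The clock of each cell is a feedback loop of transcription. CLOCK and BMAL1, the product of Arntl, bind E-box sequences and switch on the Per and Cry genes, whose proteins return to block CLOCK and BMAL1. The same pair switches on Nr1d1 and Nr1d2, which encode the haem-binding nuclear receptors REV-ERB alpha and beta. These repress Arntl through an element that they share with the activating ROR receptors. Dbp is a further E-box target whose protein acts on D-box sequences. In T cells REV-ERB alpha is known for its link to TH17 differentiation, in part through Nfil3.

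Library totals ran from 16425538 to 27595939 counts. Prdm1 held 31.8 to 71.0 CPM (counts after TMM scaling of the libraries to 1 size) in WT and 7.53 to 16.6 CPM in Blimp1-flox libraries, so each library lay on the side of its label. The 10 TFR and Treg markers (Cd3e, Cd4, Foxp3, Ikzf2, Il2ra, Ctla4, Cxcr5, Pdcd1, Icos and Bcl6) summed to 5659 to 6901 CPM in WT and 5823 to 6833 CPM in Blimp1-flox libraries, with none at 0. Within this list Il2ra was lower in Blimp1-flox, at 81.3 to 121 CPM in WT and 28.1 to 55.4 CPM in Blimp1-flox libraries (log2 change -1.39, edgeR adjusted p = 0.0311). Foxp3 held 72.5 to 105 CPM in WT and 55.7 to 75.5 CPM in Blimp1-flox libraries, which overlapped. Of the 10 markers 5 had a lower mean in Blimp1-flox. WT 4 and Blimp1-flox 3 stood apart from the other libraries on the first and the second principal component, and WT 4 held the most B cell RNA. The 12 B cell markers summed to 236, 275, 355 and 813 CPM in WT 1 to 4 and to 206 to 275 CPM in Blimp1-flox libraries.

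The promoters show where the letters of the loop lie. RefSeq promoters of GRCm38.p6, the assembly also called mm10, were matched for 9 of the 10 genes, in 13 promoters of 300 bases, from 250 bases before to 50 after each annotated start. Per2 had no entry. Both strands were searched for CACGTG (E-box), CACGTT (called E-prime box here), TTATGNAA (D-box), TAGGTCA (the core of the REV-ERB and ROR element) and GAAAGT (a core of Blimp1 sites). The REV-ERB genes, of which Nr1d1 had separated groups and Nr1d2 had not, are printed with Cry1, the other member whose groups did not overlap, and with Arntl, the main REV-ERB target. Capitals mark the matches, and AACGTG and ACTTTC are CACGTT and GAAAGT read on the other strand.
Nr1d1, chr11:98775328-98775627, minus strand: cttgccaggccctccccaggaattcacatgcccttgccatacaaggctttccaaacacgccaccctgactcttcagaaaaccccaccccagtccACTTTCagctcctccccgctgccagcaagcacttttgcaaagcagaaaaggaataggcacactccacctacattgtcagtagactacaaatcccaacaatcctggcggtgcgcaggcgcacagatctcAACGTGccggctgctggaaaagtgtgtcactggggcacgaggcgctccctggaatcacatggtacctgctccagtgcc
Nr1d2, chr14:18239057-18239356, minus strand: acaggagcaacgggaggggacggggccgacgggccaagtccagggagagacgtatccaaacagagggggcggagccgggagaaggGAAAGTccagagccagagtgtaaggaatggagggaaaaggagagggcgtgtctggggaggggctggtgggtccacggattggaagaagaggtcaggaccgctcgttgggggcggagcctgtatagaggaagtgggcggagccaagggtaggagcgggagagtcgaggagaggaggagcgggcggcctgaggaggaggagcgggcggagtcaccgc
Cry1, chr10:85185005-85185304, minus strand: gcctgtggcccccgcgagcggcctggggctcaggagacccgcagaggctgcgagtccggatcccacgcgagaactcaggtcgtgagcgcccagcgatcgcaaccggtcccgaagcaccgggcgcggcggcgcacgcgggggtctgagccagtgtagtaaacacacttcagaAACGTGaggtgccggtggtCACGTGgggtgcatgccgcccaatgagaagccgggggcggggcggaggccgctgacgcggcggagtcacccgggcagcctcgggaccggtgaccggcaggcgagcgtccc
Arntl, chr7:113207261-113207560, plus strand: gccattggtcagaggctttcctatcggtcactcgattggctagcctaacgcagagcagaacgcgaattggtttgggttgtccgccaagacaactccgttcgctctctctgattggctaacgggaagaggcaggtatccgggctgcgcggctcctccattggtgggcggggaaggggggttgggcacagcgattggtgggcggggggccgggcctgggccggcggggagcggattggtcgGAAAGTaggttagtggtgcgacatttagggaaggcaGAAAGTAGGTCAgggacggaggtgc

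Nr1d1 held an E-prime box from base -28 and GAAAGT from base -156, counted from the annotated start. Nr1d2 held GAAAGT from base -165 and neither E-box form in this window. Cry1 held an E-box from base -60 and an E-prime box from base -79. The second annotated start of Arntl was followed at base 31 by TAGGTCA, which shares its first base with the last base of a GAAAGT. Among all 32851 promoters of this length, CACGTG was in 7.15%, CACGTT in 4.685%, TTATGNAA in 3.385%, TAGGTCA in 2.606% and GAAAGT in 14.33%. Among the members CACGTG was in Cry1 and Per1, CACGTT in Cry1, Cry2 and Nr1d1, TTATGNAA in Per1 and Per3, TAGGTCA in Arntl alone, and GAAAGT in Nr1d1, Nr1d2, Arntl and Clock. These are matches of letters, and binding was not measured.

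Nr1d1 lies on chromosome 11 from 98767932 to 98775377 (mm10). Its raw counts were 128, 96, 122 and 135 in WT 1 to 4 and 282, 329, 377 and 381 in Blimp1-flox 1 to 4. As CPM these were 5.17, 4.15, 5.36 and 5.04 in WT and 17.2, 13.7, 13.6 and 16.2 in Blimp1-flox libraries. Every Blimp1-flox library held more Nr1d1 than any WT library, and the libraries of each group lay close together. The means were 4.93 ± 0.536 and 15.2 ± 1.81 CPM (SD, n = 4), a 3.07-fold higher level and a log2 change (the log2 of the fold change, Blimp1-flox relative to WT) of 1.62 ± 0.17 (SE). Nr1d1 was the 1 member among 10 past an adjusted p of 0.05, against 0.501% of all genes tested, and since this comparison chose it nothing is read from that count.

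Without WT 4 the log2 change of Nr1d1 was 1.63. In a fit that held a B cell score (mean log2 CPM of the B cell markers) it was 1.65, and 0 genes passed in that fit. The score was 2.26 to 5.01 in WT and 0.141 to 1.64 in Blimp1-flox libraries. It shared 64.0% of its variance with genotype, so the 2 cannot be told apart in that fit. The 10 exocrine pancreas markers summed to 33.1 to 62.9 CPM in WT and 51.7 to 98.6 CPM in Blimp1-flox libraries, which overlapped, with Amy2a5 at 0 throughout. Of this sum Cela1 held 27.5 to 34.3 CPM in WT and 39.7 to 67.3 CPM in Blimp1-flox libraries. Prss2 held 1.19 to 6.35 CPM in WT and 7.48 to 18.1 CPM in Blimp1-flox libraries, and neither gene's groups overlapped. Of the 10 pancreas markers 0 had a lower mean in Blimp1-flox. The 5 CD8 and NK markers summed to 27.1 to 43.5 CPM in WT and 48.3 to 50.5 CPM in Blimp1-flox libraries, without overlap. In this list Cd8a stood at 0 to 0.351 CPM and Ncr1 at 0 to 0.112 CPM, and most of the sum was Klrb1c and Cd8b1. The part of the B cell, pancreas, CD8 and NK markers in the Nr1d1 result was not tested. In bulk RNA more cells that express a gene and more RNA per cell cannot be told apart.

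Exons of Nr1d1 share no base with another gene in the deposited gene models. In GENCODE vM21, however, a form of Thra, the thyroid hormone receptor gene on the opposite strand, covers 263 of 3077 exon bases of Nr1d1. No source used here gives the strand setting of the counting, and reads of the pair cannot be told apart there. Thra held 3.54 to 5.06 CPM in WT and 5.11 to 7.36 CPM in Blimp1-flox libraries, and its log2 change of 0.34 ± 0.22 (SE) missed the threshold (edgeR adjusted p = 0.467).

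The sister gene Nr1d2, which encodes REV-ERB beta, lies on chromosome 14, and its groups overlapped. It held 60.9, 64.2, 53.9 and 40.7 CPM in WT 1 to 4 and 55.5, 58.5, 54.1 and 56.5 CPM in Blimp1-flox 1 to 4. The Blimp1-flox libraries all lay within the range of the WT libraries, of which WT 4 was the lowest. The log2 change was 0.03 ± 0.13 (SE; edgeR adjusted p = 0.927), with a 95% interval from -0.29 to 0.35. Without WT 4 the value was -0.09. In raw counts the libraries held 0.0931 ± 0.0249 Nr1d1 reads per Nr1d2 read in WT and 0.270 ± 0.0342 in Blimp1-flox (SD, n = 4). Nr1d2 thus remained the more counted of the pair in both genotypes.

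**Figure D1:**
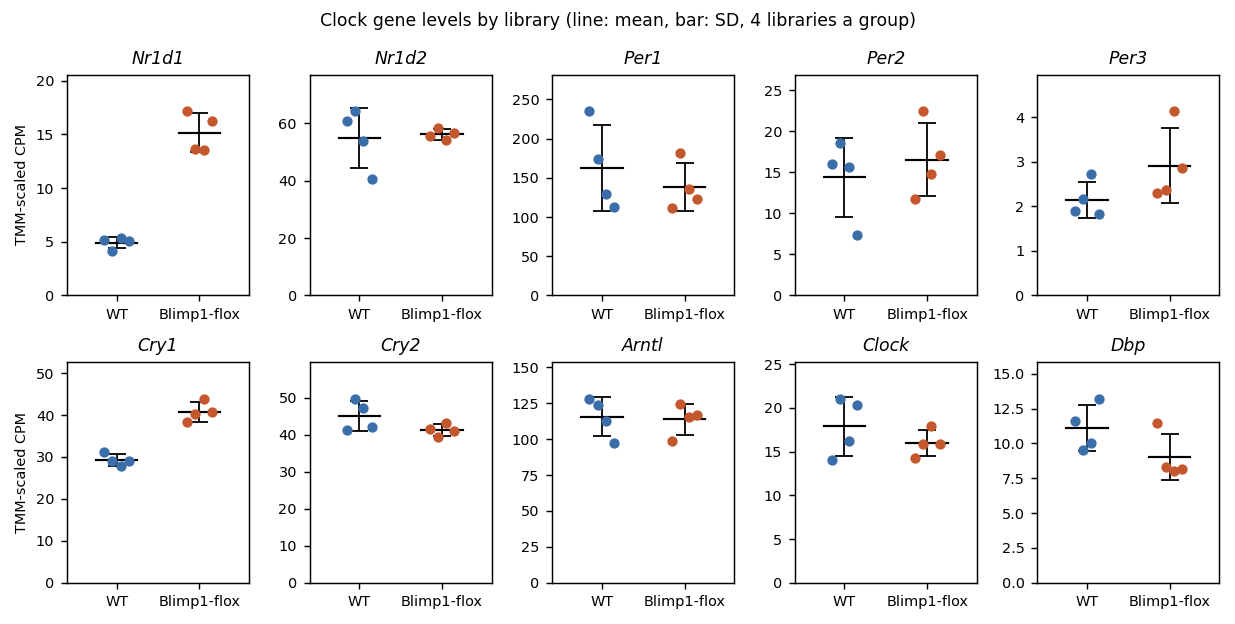
Level of each clock gene in TMM-scaled CPM on the vertical axis, by genotype, with 1 point for each library in the order of replicates 1 to 4 from left to right, a line at the mean and a bar for the SD (n = 4). The groups are apart for Nr1d1 (4.15 to 5.36 against 13.6 to 17.2 CPM) and Cry1 (27.9 to 31.2 against 38.3 to 43.9 CPM) and overlap for the other 8 genes.

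Cry1 and Cry2 encode the cryptochromes, repressors of CLOCK and BMAL1, and of the pair Cry1 alone had separated groups. Cry1 held 31.2, 28.9, 27.9 and 29.1 CPM in WT 1 to 4 and 38.3, 40.2, 43.9 and 40.7 CPM in Blimp1-flox 1 to 4. The groups did not overlap, and the spread within each was small. The means were 29.3 ± 1.37 and 40.8 ± 2.33 CPM (SD, n = 4), with a log2 change of 0.48 ± 0.10 (SE) that just missed the threshold (edgeR adjusted p = 0.0579). It passed in DESeq2 (adjusted p = 7.2e-04) and under quality-weighted limma-voom (adjusted p = 0.0121), while over all alternatives the adjusted p ran from 7.2e-04 to 0.998. The highest value came from the edgeR fit with the B cell score, in which 0 genes passed. The next was 0.236, in edgeR without Blimp1-flox 4. Apart from Nr1d1, whose separated groups follow from its choice on these libraries, Cry1 was the 1 of 9 members whose Blimp1-flox libraries all lay above WT, against 3.75% of all genes tested. None of the 9 lay wholly below WT, against 4.72% of all genes.

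Cry2 ranged from 41.2 to 49.7 CPM in WT and from 39.4 to 43.2 CPM in Blimp1-flox libraries, which overlapped. Its log2 change was -0.13 ± 0.10 (SE; edgeR adjusted p = 0.562), with a 95% interval from -0.37 to 0.12. The count ratio of Cry1 to Cry2 was 0.655 ± 0.0838 in WT and 0.989 ± 0.0455 in Blimp1-flox libraries (SD, n = 4), again with no overlap. That ratio was formed after the values had been seen, and it carries no test. Ratios without Nr1d1 or Cry1 overlapped between the groups, with Per3 to Per1 at 0.0144 ± 0.00553 and 0.0219 ± 0.00723 and Clock to Arntl at 0.158 ± 0.0422 and 0.141 ± 0.0118 (SD, n = 4). Of the Cry2 exons 149 bases, 3.72% of its length, are shared with D930015M05Rik on the other strand, which held under 1 CPM on average in both genotypes.

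**Figure D2:**
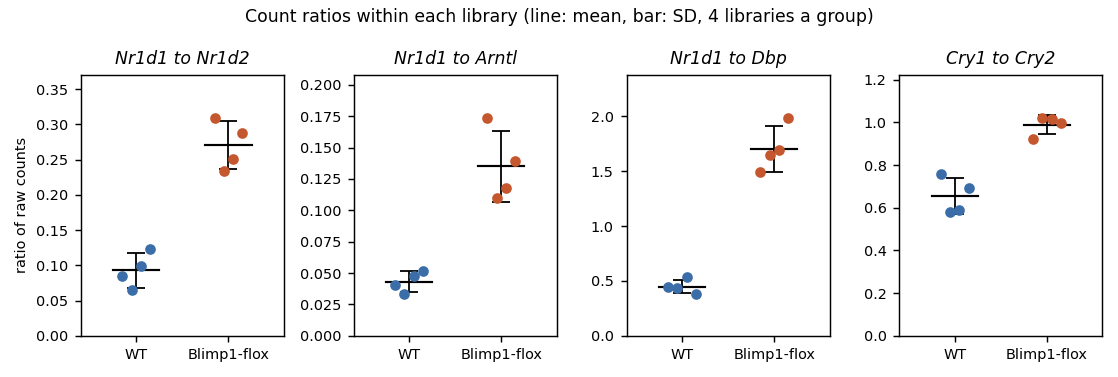
Ratio of raw counts of 2 clock genes within each library on the vertical axis, by genotype, with 1 point per library, a line at the mean and a bar for the SD (n = 4). All 4 ratios hold Nr1d1 or Cry1, shown for their separated groups, and are higher in each Blimp1-flox library than in any WT library, among them Nr1d1 to Nr1d2 (0.0931 against 0.270) and Cry1 to Cry2 (0.655 against 0.989).

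Among the period genes, whose proteins join the cryptochromes, none passed. Per1, which also responds quickly to signals outside the clock, held 235, 175, 129 and 113 CPM in WT 1 to 4 and 112, 182, 135 and 123 CPM in Blimp1-flox 1 to 4. The WT libraries alone spanned more than the gap between the group means, and the log2 change was -0.24 ± 0.23 (SE; edgeR adjusted p = 0.643). Without WT 1 the log2 change of Per1 was -0.0084. Per2 held 16.0, 18.6, 15.7 and 7.42 CPM in WT, against 11.8, 22.5, 14.9 and 17.2 CPM in Blimp1-flox libraries. WT 4 was low, the rest overlapped, and the log2 change was 0.20 ± 0.27 (SE; edgeR adjusted p = 0.739), or -0.01 without WT 4.

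Per3 was the least counted member, with 38 to 115 reads in a library. It held 1.90, 2.16, 2.72 and 1.83 CPM in WT, against 2.31, 2.37, 4.14 and 2.85 CPM in Blimp1-flox libraries. Blimp1-flox 3 was the highest of all, and the other Blimp1-flox libraries lay within or just above the WT range. The log2 change was 0.44 ± 0.30 (SE; edgeR adjusted p = 0.488), with a 95% interval from -0.29 to 1.18. This interval includes no change and also the log2 change of Cry1 (0.48). Without Blimp1-flox 3 the log2 change was 0.23.

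Neither activator gene passed. Arntl, which encodes BMAL1 and is the classical target of REV-ERB repression, held 128, 124, 113 and 97.4 CPM in WT 1 to 4 and 98.8, 124, 115 and 117 CPM in Blimp1-flox 1 to 4. These ranges nearly coincide. In GENCODE vM21 an antisense gene, Gm45355, covers 33 of 7523 exon bases of Arntl. The log2 change was -0.02 ± 0.11 (SE; edgeR adjusted p = 0.938), with a 95% interval from -0.29 to 0.24. Per Arntl read the libraries held 0.0432 ± 0.00804 Nr1d1 reads in WT and 0.135 ± 0.0285 in Blimp1-flox (SD, n = 4). Clock ranged from 14.0 to 21.0 CPM in WT and from 14.3 to 17.9 CPM in Blimp1-flox libraries, and its log2 change was -0.16 ± 0.16 (SE; edgeR adjusted p = 0.649). It ran from -0.26 without WT 1 to -0.07 without WT 2.

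Dbp, the PAR bZIP activator that is often read as an output of CLOCK and BMAL1, had a lower mean in Blimp1-flox than in WT and did not pass. It held 11.6, 9.55, 10.1 and 13.2 CPM in WT, against 11.5, 8.32, 8.02 and 8.18 CPM in Blimp1-flox libraries. Of the Blimp1-flox libraries 3 lay below every WT library and Blimp1-flox 1 lay among them. The log2 change was -0.31 ± 0.19 (SE; edgeR adjusted p = 0.435), with a 95% interval from -0.76 to 0.15. Exons of Dbp share 539 bases, 32.1% of the exon length of the gene, with Sphk2 on the other strand, so the counts of Dbp are uncertain. Sphk2 held 65.8 to 76.8 CPM in WT and 71.7 to 85.1 CPM in Blimp1-flox libraries (edgeR adjusted p = 0.538).

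**Figure D3:**
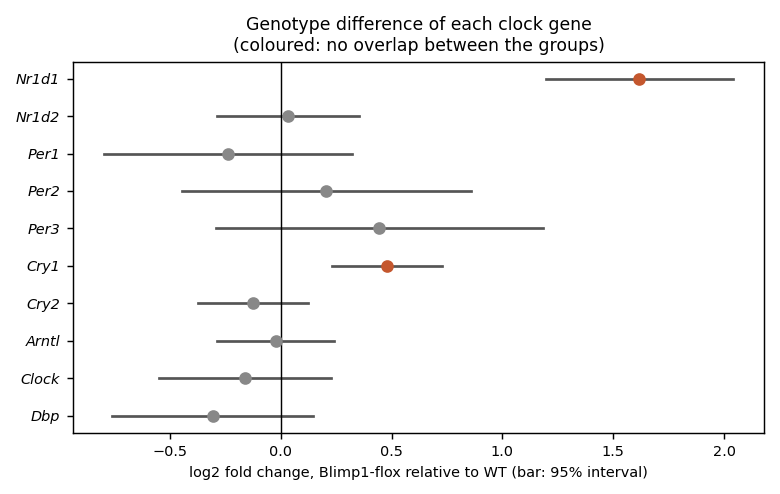
Log2 change of each clock gene, Blimp1-flox relative to WT, on the horizontal axis. The bar is the 95% interval, plus and minus the SE times the t quantile for 8 libraries. Nr1d1 stands at 1.62 and Cry1 at 0.48, both coloured because their groups did not overlap, and the intervals of the other 8 genes include 0. Nr1d1 was chosen by its rise in these libraries, so its place and interval are a description and no test.

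The 9 members other than Nr1d1 had 4 positive and 5 negative log2 changes, with a median of -0.02, and 0 of them passed in edgeR, against 0.501% of all genes tested. At an unadjusted p under 0.05 the count was 1, Cry1, against 16.2% of all genes. DESeq2 and quality-weighted limma-voom each called Cry1 and no other of the 9, against 3.66% and 4.09% of all genes. Over all 12363 genes 6198 log2 changes were positive and 6165 negative, and the median was 0.00119.

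Levels can be compared between genes per length, as CPM per kilobase of exon. The order below rests on the deposited exon lengths, such as 2908 bases for Arntl, against 7523 in GENCODE vM21. The level of Dbp is uncertain, as its exons share bases with Sphk2. In WT the order was Arntl (39.8 ± 4.73), Per1 (34.7 ± 11.6), Nr1d2 (11.8 ± 2.24), Cry2 (11.3 ± 1.02), Cry1 (9.70 ± 0.456), Dbp (6.62 ± 0.986), Per2 (2.47 ± 0.829), Clock (1.80 ± 0.340), Nr1d1 (1.78 ± 0.194) and Per3 (0.356 ± 0.0671), as mean ± SD over 4 libraries. Neighbours in this order whose libraries overlapped were Arntl and Per1, Nr1d2 and Cry2, Cry2 and Cry1, Per2 and Clock, and Clock and Nr1d1. In Blimp1-flox cells Nr1d1 stood above Clock and Per2, at 5.48 ± 0.656 CPM per kilobase, overlapping with Dbp at 5.37 ± 0.993. Cry1 stood above Nr1d2 and Cry2 there, at 13.5 ± 0.771 CPM per kilobase.

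Libraries of 1 genotype differed in several clock genes, and whether these genes moved together was not tested. Against the mean of its own group on the log2 scale, WT 4 was lower by 0.87 for Per2, 0.47 for Per1, 0.41 for Nr1d2 and 0.24 for Arntl, and higher by 0.26 for Dbp. Blimp1-flox 1 was lower by 0.45 for Per2, 0.28 for Per1 and 0.20 for Arntl, and higher by 0.37 for Dbp. Blimp1-flox 2 and WT 2 went the other way, with Per2 higher by 0.48 and 0.44, Arntl higher by 0.13 and 0.11 and Dbp lower by 0.10 and 0.20. In WT 1 Per1, Per2, Arntl and Dbp were all higher, by 0.59, 0.23, 0.16 and 0.08. In WT 3 Per1 was lower by 0.28 and Arntl by 0.03, while Per2 was higher by 0.20. Blimp1-flox 3 and 4 lay within 0.15 of their group mean for Per1, Per2 and Dbp. Nr1d1 moved within its groups by 0.24 at most, in WT 2, and Cry1 by 0.11 at most.

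**Figure D4:**
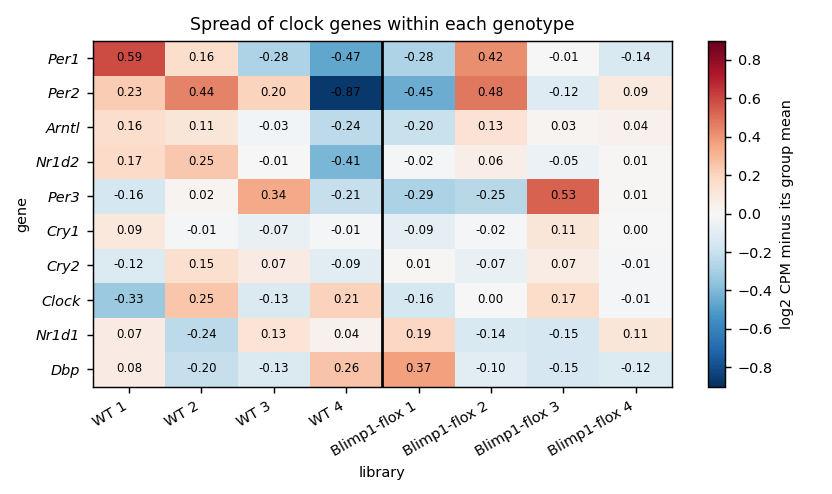
Log2 CPM of each clock gene minus the mean of its own genotype, as colour and number, with genes as rows and libraries as columns. Per2 shows the widest spread, from -0.87 in WT 4 to 0.48 in Blimp1-flox 2, and Cry1 the narrowest, within 0.11 of its group means.

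Beyond the members, 43 further genes of the clock and of haem handling were listed with earlier results of these data known, and 41 of them were tested. In edgeR 0 of the 41 passed, against 0.501% of all genes, and 8 had an unadjusted p under 0.05, against 16.2%. At such a share nothing is read from a count of 0 in the lists below. DESeq2 called 1 (Klf9), against 3.66% of all genes, and quality-weighted limma-voom 3 (Klf9, Npas2 and Hlf), against 4.09%. The 41 had 17 positive and 24 negative log2 changes, with a median of -0.02. Groups did not overlap for 2, both higher in Blimp1-flox, against 3.75% of all genes. These were Hdac3 and Blvra, of which Blvra was named after its values were seen.

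The ROR receptors compete with REV-ERB for the same element. Rora, which encodes ROR alpha, held 137 to 163 CPM in WT and 158 to 198 CPM in Blimp1-flox libraries (log2 change 0.19, edgeR adjusted p = 0.361). Npas2, which can stand in for CLOCK, showed a log2 change of 1.01 ± 0.41 (SE) from 1.52 ± 0.886 CPM in WT to 3.07 ± 0.504 CPM (SD, n = 4; edgeR adjusted p = 0.256). Arntl2 and Rorb were too low to be tested.

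The listed genes described as REV-ERB targets were Arntl, Clock, Npas2, Cry1 and Nfil3. Of these 5, 2 had a positive and 3 a negative log2 change, and 0 passed in edgeR, against 0.501% of all genes. Nfil3, a bZIP repressor that opposes DBP, held 454 to 826 CPM in WT and 357 to 597 CPM in Blimp1-flox libraries (log2 change -0.35, edgeR adjusted p = 0.410). Without WT 1, the highest library, the value for Nfil3 was -0.15. Cry1 was the 1 gene of these 5 whose Blimp1-flox libraries all lay above WT, against 3.75% of all genes.

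Of 5 further repressors of CLOCK and BMAL1, all had negative log2 changes between -0.44 and -0.03. Over all 12363 genes tested 6165 had a negative one. In edgeR 0 of these 5 passed, against 0.501% of all genes. Bhlhe40, which encodes DEC1 and is also a factor of activated T cells, was the most abundant at 1712 ± 323 CPM in WT and 1358 ± 283 CPM in Blimp1-flox (SD, n = 4; edgeR adjusted p = 0.324). Ciart, an E-box target like Nr1d1, held 33.6 to 60.3 CPM in WT and 34.8 to 53.9 CPM in Blimp1-flox libraries (edgeR adjusted p = 0.764). Of 9 kinases and ubiquitin ligase parts that act on PER and CRY, 2 had positive and 7 negative log2 changes. Of these 9, 0 passed in edgeR, against the same 0.501%. Csnk1d, a kinase of PER proteins, and Fbxw11, a ligase part, had log2 changes of -0.02 and -0.04.

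Among 8 output genes 2 had positive and 6 negative log2 changes, and 0 passed in edgeR, against 0.501% of all genes. Tef, a PAR bZIP relative of Dbp, held 54.5 ± 10.2 CPM in WT and 57.3 ± 3.56 CPM in Blimp1-flox (SD, n = 4; edgeR adjusted p = 0.816). Nampt, the NAD salvage enzyme under clock control, showed a log2 change of -0.07 (edgeR adjusted p = 0.808). The widest values of the list, singled out after they were seen, were those of Klf9 and Hlf. Klf9, which also responds to glucocorticoids, stood at a log2 change of -0.87 ± 0.27 (SE; edgeR adjusted p = 0.172). WT 1 held 39.4 CPM of Klf9, against 14.2 to 24.9 CPM in the other WT and 10.8 to 16.3 CPM in the Blimp1-flox libraries, and without WT 1 the value was -0.54. Hlf, the third PAR bZIP gene, had one of 1.56 ± 0.61 (SE; edgeR adjusted p = 0.246), from 0.362 ± 0.329 CPM in WT to 1.10 ± 0.302 CPM (SD, n = 4), or 2.35 without WT 4.

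REV-ERB alpha represses together with NCoR1 and histone deacetylase 3. Hdac3 held 162 to 175 CPM in WT and 176 to 196 CPM in Blimp1-flox libraries, which did not overlap, and its log2 change of 0.15 ± 0.08 (SE) did not pass (edgeR adjusted p = 0.386). Ncor1 showed a log2 change of -0.29 ± 0.13 (SE; edgeR adjusted p = 0.291), or -0.16 without WT 4, its highest library. Nono, a partner of PER proteins, had one of -0.01. Haem is the ligand of both REV-ERB proteins. Of 11 genes of haem synthesis and breakdown 10 had positive log2 changes, with a median of 0.20, against 6198 of all 12363 genes tested. A shared change of this list was not tested. In edgeR 0 of the 11 passed, against 0.501% of all genes. Alad, a haem synthesis enzyme, and Blvra, a biliverdin reductase, had log2 changes of 0.24 and 0.25 (edgeR adjusted p = 0.298 and 0.222), and Ppox, another synthesis enzyme, one of -0.30 (adjusted p = 0.322).

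**Figure D5:**
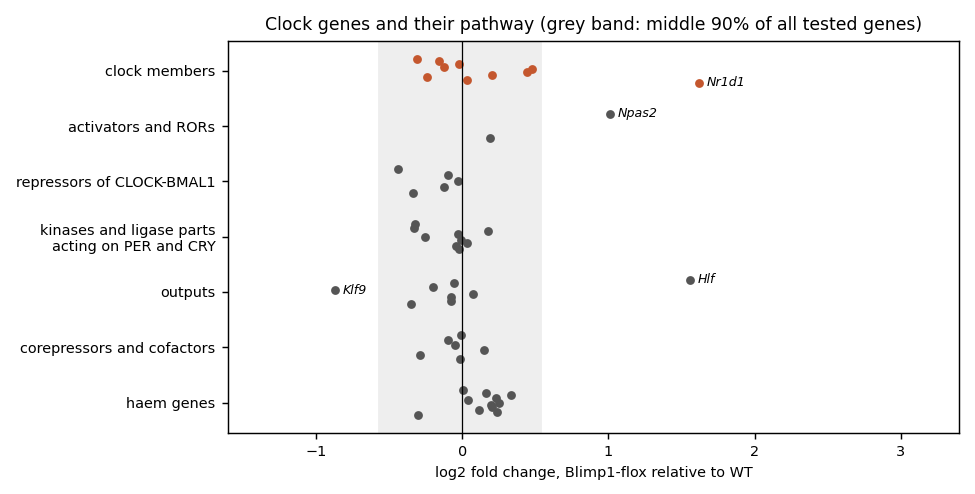
Log2 change, Blimp1-flox relative to WT, on the horizontal axis for the 10 clock genes and 6 lists of related genes, 1 point per tested gene, with a grey band for the middle 90% of all tested genes (-0.57 to 0.54). Outside the band lie Nr1d1 (1.62), Npas2 (1.01), Hlf (1.56) and Klf9 (-0.87), and the labels mark genes beyond 0.8 in either direction.

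The genes whose profile over the 8 libraries was most like that of Nr1d1 were not clock genes. Likeness was the root mean square difference of centred log2 CPM, over 10695 genes with a mean log2 CPM of at least 1. The nearest were Lgmn, a lysosomal endopeptidase (0.28), Fam20a, a secretory pathway pseudokinase (0.30), Abhd15 (0.30), Gcnt1, a branching enzyme of O-glycans (0.31), and Nebl, an actin-binding protein (0.32). Lgmn held 16.5 ± 2.10 CPM in WT and 35.1 ± 6.53 CPM in Blimp1-flox libraries (SD, n = 4). The nearest clock gene was Cry1 at rank 192 (0.59), followed by Per3 at rank 921 (0.69), and Dbp stood at rank 8920 (0.97). As the profile of Nr1d1 is mostly its genotype difference, these ranks describe the same contrast and carry no test.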

How the data were processed

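The authors deposited a raw, unnormalized count for each gene. The submitters' processing notes name STAR 2.5.2b, mm10 and featureCounts from Subread version 1.5.1. Libraries were made with a KAPA mRNA kit, per the labels. The deposited table also gives each gene's exon length, another measurement, used for levels per kilobase. Annotation and strand setting are not given in the sources used here.

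Here 12363 genes were kept with filterByExpr, scaled by TMM and tested by quasi-likelihood in edgeR 4.0.16 (R 4.3.3, robust), genotype alone, with Benjamini-Hochberg adjustment over all genes and a threshold of 0.05. SEs come from the F statistic. The 95% intervals use the t quantile of the 8 libraries, without the degrees of freedom that the test gained over genes. They are thus wider than the test's p-values imply. Levels are TMM-scaled CPM. Alternatives were RLE, library-total and upper-quartile scaling, other filters, DESeq2 1.42.0, quality-weighted limma-voom (limma 3.58.1), a replicate block, libraries left out and a B cell score. The members and lists were chosen with earlier results of these data known. 1 gene of the lists is not reported here and is left out of their counts and the plot of related genes. Named genes were all members, uncalled list genes of high level, genes overlapping a member, and the 5 nearest profiles, plus those said to be chosen after their values. Of the other marker lists, the 4 plasma cell markers summed to 19.4 to 29.9 CPM in WT and 10.00 to 89.4 in Blimp1-flox, the 8 myeloid markers to 98.0 to 144 and 99.9 to 209, and the 6 erythroid markers, 4 of them at 0 throughout, to 12.8 to 28.2 and 5.03 to 13.9.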

Additional observations from a re-analysis of the deposited data

Results flagged for a closer look

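In groups of 4 libraries, a library was singled out where its gap to the nearest of the others exceeded Dixon's limit for a share of the group's range, which chance passes in about 1 in 20 groups. Of 68 groups (34 genes in each genotype) 3 passed it. Dbp held 11.5 CPM in Blimp1-flox 1 and 8.02 to 8.32 CPM in the other Blimp1-flox libraries. Rora held 137 CPM in WT 3 and 159 to 163 CPM in the other WT libraries. Tef held 62.6 CPM in Blimp1-flox 2 and 55.0 to 56.3 CPM in the other Blimp1-flox libraries.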

How the results depend on the processing

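The log2 change of Nr1d1 stayed between 1.55 and 1.68 in all 18 alternatives. The clock members called were Nr1d1 alone, which these libraries chose, so that nothing is read from this count. It was 2 in DESeq2 and in quality-weighted limma-voom, by the call of Cry1, and 0 with the B cell score as covariate, which shared 64.0% of its variance with genotype. The count of all genes called was 62, with 93 without a filter, 453 in DESeq2, 506 in quality-weighted limma-voom, 157 without WT 4 and Blimp1-flox 3 together, 0 with the B cell score (518 at an unadjusted p under 0.05), and 20 (without Blimp1-flox 1) to 127 (without WT 1) with 1 library left out. It was 27 without WT 2, 94 without Blimp1-flox 3 and 23 without Blimp1-flox 4. Of the 41 other clock genes tested, 0 were called, also with any 1 library left out, but 1 in DESeq2 (Klf9) and 3 in quality-weighted limma-voom (Klf9, Npas2 and Hlf). The labels do not say whether replicate numbers pair the libraries. Same-numbered libraries' deviations correlated at 0.10, 0.15, -0.10 and -0.11, which does not decide it. With the number as a replicate block 52 genes were called, 37 of them among the 62, and no member besides Nr1d1.

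Log2 changes that changed sign lay between -0.29 (Ncor1) and 0.20 (Per2) in edgeR with all libraries, and the causes were not tested. With 1 library left out, the log2 change ran from -0.097 to 0.038 for Arntl, -0.088 to 0.12 for Nr1d2, -0.012 to 0.35 for Per2, -0.077 to 0.017 for Csnk1d, -0.16 to 0.025 for Fbxw11, -0.18 to 0.034 for Nampt, -0.049 to 0.15 for Tef and -0.046 to 0.020 for Nono. Without WT 4 and Blimp1-flox 3 together it was -0.071 for Nr1d2 and -0.041 for Tef, and Tef had -0.031 in quality-weighted limma-voom. With the B cell score it was -0.35 for Nr1d2, -0.36 for Per2, -0.20 for Tef and 0.063 for Ncor1. Without WT 2 the log2 change was -0.07 for Cry2 and -0.19 for Ppox, and without Blimp1-flox 1 it was 0.21 for Thra. Depth limits Per3, Npas2 and Hlf, which had 38 to 115, 18 to 92 and 1 to 37 reads in a library.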

Other observations

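None of the tested genes beside Nr1d1 on chromosome 11 passed. Within 100 kb, 10 other genes have exons in the deposited gene models. Of these 6 were tested and 0 passed in edgeR, against 0.501% of all genes tested. Their log2 changes ran from -0.10 for Casc3, an exon junction complex component, to 0.34 for Thra. Med24, a Mediator subunit, held 112 ± 5.19 CPM in WT and 117 ± 3.68 CPM in Blimp1-flox libraries (SD, n = 4), and Msl1 held 48.3 ± 8.31 and 45.3 ± 9.34 CPM. Thra, 2821 bases from Nr1d1, was the 1 neighbour whose Blimp1-flox libraries all lay above WT, against 3.75% of all genes tested.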
